A study of Mus musculus with 12 samples.

Results

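The genes of the cytosolic ribosomal proteins were followed in mouse skin. They were chosen by name alone, as protein-coding genes whose symbol is Rpl or Rps with a number and at most the letters a, l or x, together with *Rplp0*, *Rplp1*, *Rplp2* and *Rpsa*. The rule found 81 genes of the 52636 in the table, 50 for the large subunit and 31 for the small one. Of these, 80 had enough counts to be tested, and the remaining gene, *Rpl10l*, a testis paralog, had 0 counts in all 12 libraries. Skin of 3-month-old C57BL/6 mice was sequenced after 14 days in 4 groups of 3 mice. The WT and KO groups received the vehicle, normal saline with hydroxypropyl methylcellulose (HPMC), on the back skin, and zinc oxide nanoparticles (ZnO NPs) were applied in it to the KO+ZnO NPs and WT+ZnO NPs groups. The WT mice were labelled wild type, and the paper's supplement gives them as Cre-negative carriers of floxed *Cdc42*. The KO mice carried *Cdc42* flox/flox with a Cre recombinase under the keratin K5 promoter. The deletion is thus limited to cells in which this promoter was active and their descendants, while the libraries held full-thickness skin. The study asked how the KO mice, a model of a defective epidermal barrier, respond to the particles. In such bulk RNA, fewer cells of a type and less RNA per cell cannot be told apart.

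Each ribosome carries a single copy of most of these proteins on its ribosomal RNA. The mRNAs of nearly all of them begin with a pyrimidine tract right at the cap (the 5′ terminal oligopyrimidine, or TOP, motif), through which mTORC1 and LARP1 control their translation together with that of elongation factors. Many of the genes host small nucleolar RNAs in their introns, and the family has a very large number of processed pseudogenes. Growing cells, such as proliferating keratinocytes and hair matrix cells, make many ribosomes.

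The sequence around the transcription start is shown for the members on which the comparisons turn, since this is where the TOP tract begins. Promoters were matched in RefSeq on GRCm38.p6 for 61 of the 81 members, with 73 starts in all. Each line gives the 30 bases before the listed start and the 25 from it on, written 5′ to 3′ on the strand of the gene. Capitals mark CTTTC on the gene's strand, a pyrimidine run, and CCGGAAG or its reverse complement, the core to which ETS factors such as GABPA bind. The first 4 members rose with ZnO NPs in both genotypes. Of these 4, *Rpl38* alone was called between the KO groups when KO+ZnO NPs replicate 2 was left out, with 0.67 (adjusted p = 0.0595) for *Rpl27* and 0.42 (adjusted p = 0.0885) for *Rpl28*.
*Rpl38*, chr11:114668550-114668604, plus strand: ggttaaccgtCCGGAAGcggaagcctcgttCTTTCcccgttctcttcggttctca
*Rplp2*, chr7:141447621-141447675, plus strand: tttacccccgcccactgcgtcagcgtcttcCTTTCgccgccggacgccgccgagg
*Rpl28*, chr7:4792935-4792989, plus strand: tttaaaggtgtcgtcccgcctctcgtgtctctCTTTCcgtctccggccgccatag
*Rpl27*, chr11:101442215-101442269, plus strand: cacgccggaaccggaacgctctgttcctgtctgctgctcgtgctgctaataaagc

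The next 4 rose with ZnO NPs between the KO groups, and the last of them, *Rps27l*, is shown with its paralog *Rps27*. For *Rpl35a*, which has several listed starts, the middle one is shown.
*Rpl35*, chr2:39005107-39005161, minus strand: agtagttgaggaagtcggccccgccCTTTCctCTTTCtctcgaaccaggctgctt
*Rpl35a*, chr16:33056452-33056506, plus strand: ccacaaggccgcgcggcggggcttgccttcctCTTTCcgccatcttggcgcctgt
*Rpl39*, chrX:37085198-37085252, minus strand: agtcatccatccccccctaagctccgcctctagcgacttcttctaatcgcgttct
*Rps27l*, chr9:66946056-66946110, plus strand: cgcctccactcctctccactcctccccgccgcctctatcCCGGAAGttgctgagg
*Rps27*, chr3:90213624-90213678, minus strand: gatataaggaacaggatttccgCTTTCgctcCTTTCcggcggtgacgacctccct

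The following paralog of *Rpl39* fell with ZnO NPs between the WT groups.
*Rpl39l*, chr16:10170198-10170252, plus strand: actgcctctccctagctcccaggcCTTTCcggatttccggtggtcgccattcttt
Read by these letters, the start of *Rpl38* holds both motifs, *Rpl35* and *Rps27* hold CTTTC at 2 places each, and *Rps27l* holds CCGGAAG downstream of its start and no CTTTC in this stretch. Over the 61 members, 33 (54.1%) had CTTTC on the gene's strand within 50 bases of a start, against 14.6% of 27025 genes with a promoter, while on the opposite strand the shares were 11.5% and 13.8%. CCGGAAG on either strand of the 300-base window was found for 25 members (41.0%), against 9.93% of all genes. Between the KO groups the median log2 fold change was 0.62 for the 33 members with CTTTC and 0.66 for the 27 tested members without it, and between the WT groups the medians were 0.20 and 0.24. For CCGGAAG they were 0.69 with (25 members) and 0.64 without it (35) between the KO groups, and 0.10 and 0.30 between the WT groups. Without KO+ZnO NPs replicate 2, whose levels stood apart, the medians between the KO groups were 0.44 with and 0.43 without CTTTC, and 0.43 with and 0.44 without CCGGAAG.

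The libraries held 21076320 to 28867802 counts and 23497 to 25591 detected genes. The *Cdc42* transcript lay at 606 to 628 CPM (share of a library's counts on the usual CPM scale, with edgeR's TMM factors) in WT, 415 to 464 in KO, 314 to 453 in KO+ZnO NPs and 311 to 350 in WT+ZnO NPs, so it went against the label of the last group, which is named here only by that label. The paper describes female mice, while Y-linked transcripts stood at 192 to 242 CPM in 5 libraries (all 3 of WT+ZnO NPs, KO replicate 1 and KO+ZnO NPs replicate 1). KO+ZnO NPs replicate 2 stood apart for this family, with the highest level of 12 libraries for 73 of 80 members and the fewest detected genes. It also had the highest summed levels of the 5 red cell markers (1626 CPM, against 157 to 882 elsewhere) and of the 4 endothelial markers (622 CPM, against 82.6 to 469.7), whose part in its levels was not tested. Between the WT groups, sex cannot be told apart from ZnO NPs, since all 3 libraries of WT+ZnO NPs and none of WT held the Y-linked transcripts. The main counts, medians and shares between the KO groups and between the ZnO NP groups are given with and without KO+ZnO NPs replicate 2.

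The members were among the most abundant transcripts of the skin. Their median level over the 12 libraries was 729 CPM for the 80 tested, against 25.5 CPM for the 15492 other protein-coding genes tested. Per kilobase of transcript, the highest mean levels were those of *Rplp1* at 3771 CPM per kb, *Rpl41* at 2883, *Rps14* at 2635, *Rps24* at 2130 and *Rps18* at 2111. *Rplp1* is a protein of the acidic stalk to which elongation factors bind, and *Rpl41* encodes the shortest protein of the ribosome. The 75 members above 100 CPM spanned 15.8-fold in CPM, from *Rps27l* at 139.9 to *Rplp0* at 2206, and their median per length was 1029 CPM per kb. This order of levels was much alike in all libraries, with Spearman's rho of 0.896 to 0.993 (median 0.955) over the 66 pairs of libraries, across genes that share the libraries' depth.

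The other 6 members lay below 100 CPM. Besides *Rpl10l* they were *Rpl36al* at 1.22 CPM, *Rpl24* at 2.19, *Rpl39l* at 13.8, *Rpl13a* at 41.8 and *Rpl3l* at 46.6. *Rpl24*, *Rpl13a* and *Rpl36al* each overlap an annotated read-through gene that had 0 counts in all libraries (*Gm28037*, *Gm45713* and *Gm49383*), and whether reads lying in both genes of such a pair are missing from these counts was not tested. Over the family, a median of 52.06% of a member's 50-base stretches also occurred in another gene's transcripts, 43 members shared over 50%, and *Rpl3l* and *Rpl39l* were among those that shared none. Members are short, with a median of 756 bases and 5 exons against 2662 bases and 8 exons for the other protein-coding genes tested, and 29 of 80 (36.25%) held a small nucleolar RNA gene, against 2.27%.

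As a whole the family took a larger share of the RNA in the groups given ZnO NPs. The members held 5.31, 5.68 and 5.08% of the counts in WT, 5.96, 6.51 and 7.41 in WT+ZnO NPs, 5.65, 5.46 and 4.97 in KO, 7.11, 9.49 and 6.81 in KO+ZnO NPs. The mean shares were 5.35% ± 0.302 in WT, 6.63% ± 0.732 in WT+ZnO NPs, 5.36% ± 0.349 in KO and 7.81% ± 1.47 in KO+ZnO NPs (SD, n = 3 each). The WT and KO groups overlapped, at a ratio of 1.00, whereas each ZnO NP group lay above the vehicle group of its genotype with no overlap, by 1.24 times for WT and 1.46 times for KO. Without KO+ZnO NPs replicate 2 the last ratio was 1.30. The KO+ZnO NPs and WT+ZnO NPs groups overlapped, at a ratio of 1.18, or 1.05 without that library. The subunits moved together: counts on large-subunit genes stood at 1.28 to 1.33 times those on small-subunit genes in every library. The share of counts on mitochondrially encoded genes also differed, with means of 2.82% in WT, 4.31% in WT+ZnO NPs, 2.66% in KO and 4.28% in KO+ZnO NPs, and its part in the result was not tested.

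**Figure D1:**
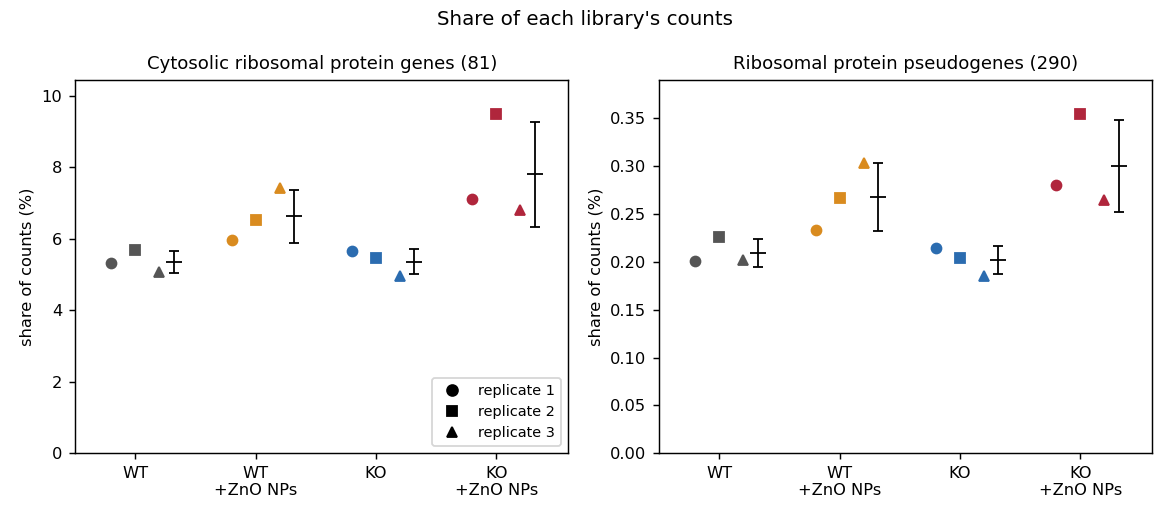
Share of a library's counts on the 81 cytosolic ribosomal protein genes, and on the 290 pseudogenes named after genes of this family with -ps, in percent, for the 3 libraries of each group (points) with the group mean and SD beside them. In both panels the ZnO NP groups lie above the vehicle group of their genotype, and KO+ZnO NPs replicate 2 is the highest point, at 9.49% of the counts for the genes.

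Between KO and WT, which both received the vehicle, few members differed. No member was higher in KO than in WT by edgeR (0 of 80, background 4.61% of 18822 genes), and 1 was lower (1.25%, background 3.58%). The median log2 fold change of the members was -0.03, against 0.01 for all genes tested, with 32 members above 0, and the quartiles of the members lay at -0.12 and 0.07. At an unadjusted p below 0.05, 1 member was higher (1.25%, background 14.2%) and 2 lower, together 3.75% against 26.1% of all genes. DESeq2 called 1 higher (1.25%, background 7.80%) and 2 lower (background 6.45%). Levels of the KO group lay wholly above those of WT for 7 members (8.75%, background 18.6%).

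The member that fell was *Rps27l*, a p53-induced paralog of *Rps27* (chromosome 9 from 66946086 to 66949516 on the plus strand, GRCm38). Its levels were 158, 181 and 133 CPM in WT, 143, 126 and 145 in WT+ZnO NPs, 108, 81.6 and 88.2 in KO and 139.6, 214 and 163 in KO+ZnO NPs. All 3 KO libraries lay below every other library, with a log2 fold change of -0.76 (SE 0.18, adjusted p = 0.0304) against WT. *Rps27* itself stood at 569, 573 and 554 CPM in WT and 763, 677 and 553 in KO, a log2 fold change of 0.23 (SE 0.19, adjusted p = 0.489). The fall of *Rps27l* no longer passed with the presence of Y-linked transcripts as a covariate (adjusted p = 0.0684), nor without WT replicate 1, WT replicate 2, KO replicate 2 or KO replicate 3.

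Between the groups labelled WT+ZnO NPs and WT, which also differed in Y-linked transcripts, a minority of the family was called, with unlike fold changes. In the libraries labelled WT+ZnO NPs, 10 of 80 members rose against WT (12.5%), which is fewer than the 20.8% of all genes that did, and 1 fell (1.25%, background 22.1%). The median of the members was 0.23, against 0.06 for all genes, and 64 members lay above 0. Levels of WT+ZnO NPs lay wholly above those of WT for 37 members (46.25%, background 30.1%), 27 of them not called. The large subunit had 8 of the rises among its 49 tested members and the small subunit 2 of 31, with medians of 0.17 and 0.24.

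The largest rise was that of *Rpl24*, whose mutation causes the Belly spot and tail mouse, but at a very low level. Its levels were 1.68, 1.47 and 1.32 CPM in WT and 3.12, 3.97 and 3.32 in WT+ZnO NPs, a log2 fold change of 1.22 (SE 0.26, adjusted p = 0.00386). *Rpl13a*, which outside the ribosome takes part in silencing of inflammatory mRNAs (chromosome 7 from 45125558 to 45128761 on the minus strand, GRCm38), stood at 23.6, 29.3 and 30.2 CPM in WT, 55.7, 56.8 and 62.6 in WT+ZnO NPs, 32.9, 24.7 and 30.4 in KO and 44.2, 67.6 and 43.2 in KO+ZnO NPs. The WT+ZnO NPs libraries lay at 55.7 or above and the WT libraries at 30.2 or below, a log2 fold change of 1.08 (SE 0.19, adjusted p = 0.00129). Like *Rpl24* it overlaps a read-through gene, and 57.41% of its stretches occur in other genes.

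The rise of *Rpl13a* on WT skin passed under all 22 alternative settings tried, as did that of *Rplp2*, while *Rpl24*, *Rpl27* and *Rpl28* lost their calls in 1 each, *Rpl38* and *Rpl7a* in 3, *Rpl21* in 6 and *Rps28* in 7. *Rpl27*, a large-subunit protein, had a log2 fold change of 0.82 (SE 0.21, adjusted p = 0.00936), and *Rpl21* one of 0.80 (adjusted p = 0.0237). *Rplp2*, a stalk protein like *Rplp1* (chromosome 7 from 141447370 to 141451585 on the plus strand, GRCm38), stood at 515, 599 and 507 CPM in WT, 835, 962 and 895 in WT+ZnO NPs, 547, 566 and 488 in KO and 724, 1104 and 784 in KO+ZnO NPs. Every library given ZnO NPs lay above every vehicle library, and the rise on WT skin had a log2 fold change of 0.73 (SE 0.18, adjusted p = 0.0078). Smaller rises were those of *Rpl28* at 0.72 (adjusted p = 0.00872), *Rpl7a* at 0.62 (adjusted p = 0.0158), *Rpl38* at 0.50 (adjusted p = 0.0185) and *Rps28* at 0.48 (adjusted p = 0.0277).

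*Rpl39l*, a paralog of *Rpl39* known from testis and tumours (chromosome 16 from 10170226 to 10174911 on the plus strand, GRCm38), was the member that fell. Its levels were 18.6, 23.3 and 12.8 CPM in WT, 6.28, 10.6 and 7.91 in WT+ZnO NPs, 12.8, 11.5 and 17.3 in KO and 13.0, 15.7 and 15.5 in KO+ZnO NPs. The WT+ZnO NPs libraries were the lowest of all 12, with a log2 fold change of -1.15 (SE 0.26, adjusted p = 0.00571) against WT, while its abundant paralog *Rpl39* had one of 0.01 (adjusted p = 0.96). The number of calls in this comparison depended on the settings. With Y-linked transcripts as a covariate 3 members passed, all higher (3.75%, while 8.44% of all genes rose in that fit). Without KO+ZnO NPs replicate 2, which is in neither group, 25 passed, 24 of them higher (30%, while 24.3% of all genes rose in that fit). With library size only 26 passed, 25 of them higher (31.25%, against 25.1% of all genes), and 19 in edgeR on these 6 libraries, 18 of them higher (22.5%, against 25.7%).

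With ZnO NPs on KO skin the family was higher nearly as a whole. Between KO+ZnO NPs and KO, 38 of 80 members rose (47.5%, background 6.57%) and 0 fell (background 8.09%). No member had a fold change below 0, and DESeq2 also called 0 lower. The median of the members was 0.62, against 0.01 for all genes. The quartiles of the members were 0.52 and 0.76, whereas those of all genes were -0.42 and 0.38. Levels of KO+ZnO NPs lay wholly above those of KO for 71 members (88.75%, background 17.0%), the 38 called members among them. Large and small subunits gave 23 of 49 and 15 of 31 rises with medians of 0.62 and 0.61, and without KO+ZnO NPs replicate 2 they gave 14 and 5 with medians of 0.44 and 0.42.

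**Figure D2:**
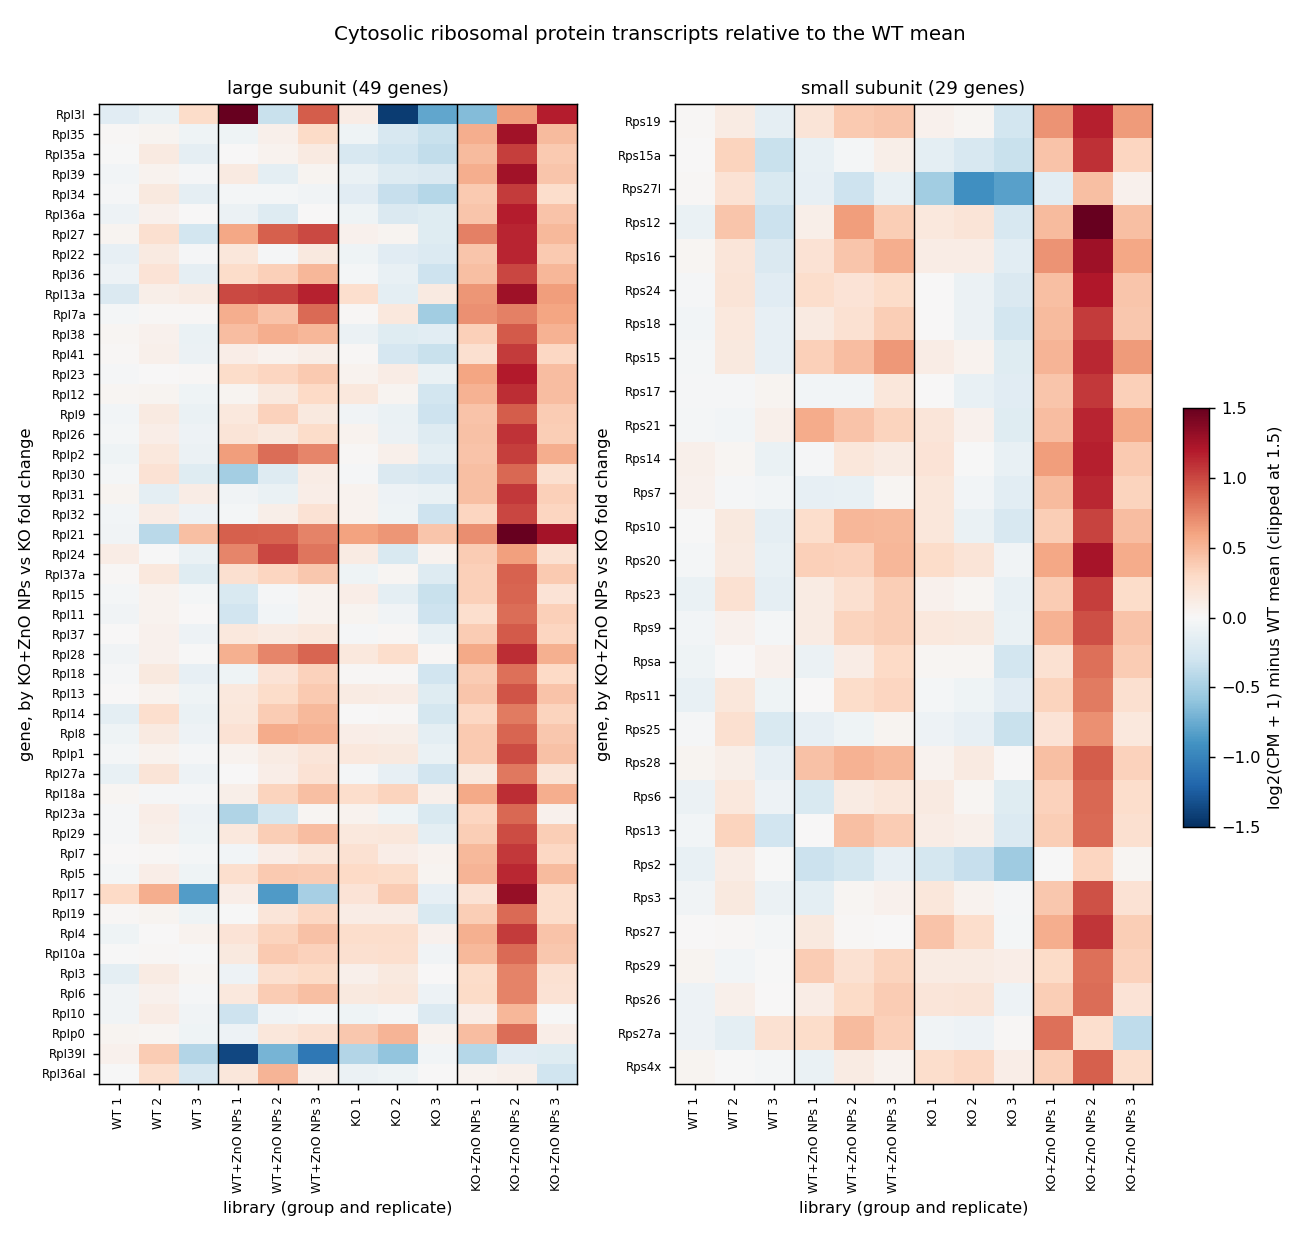
Level of 78 tested members in each of the 12 libraries, as log2(CPM + 1) minus its mean in WT, with colours ending at 1.5 in either direction and genes ordered within each subunit by the fold change between the KO groups. The KO+ZnO NPs libraries are higher over nearly all members, replicate 2 most, while the WT+ZnO NPs libraries are higher for some members and not for others.

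How far KO+ZnO NPs lay above KO depended in part on 1 library. The median log2 difference of the members from the WT mean was 0.98 in KO+ZnO NPs replicate 2, against 0.42 and 0.37 in replicates 1 and 3. Without it 19 members were called (23.75%, against 3.42% of all genes in that fit), all higher, and the median of the members was 0.43, against 0.02 for all genes. The count of calls varied more than the size of the rise, and all calls were higher. Without KO replicate 2, 2 members passed (2.5%, against 0.57% of all genes that rose), and without KO replicate 3 also 2 (2.5%, against 2.01%). There were 23 without KO replicate 1 (28.75%, against 3.73%) and 25 without WT replicate 1 (31.25%, against 4.41%). In edgeR on these 6 libraries alone 0 passed, with 50 at an unadjusted p below 0.05 (62.5%, against 26.9% of all genes, of which 3.24% were called) and a lowest adjusted p of 0.0561. DESeq2 called 61 higher (background 10.3% of 19441 genes).

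The largest rise was that of *Rpl35*, a protein near the exit of the peptide tunnel. It stood at 532, 538 and 501 CPM in WT, 499.8, 554 and 640.0 in WT+ZnO NPs, 502, 442 and 416 in KO and 766, 1250.5 and 729 in KO+ZnO NPs. The KO+ZnO NPs libraries were the 3 highest of all, with a log2 fold change of 1.01 (SE 0.21, adjusted p = 0.0147), and the groups labelled WT overlapped, at 0.11 (adjusted p = 0.692). *Rpl35a*, a protein mutated in some patients with Diamond-Blackfan anaemia (chromosome 16 from 33056453 to 33060189 on the plus strand, GRCm38), stood at 427, 469.9 and 389 CPM in WT, 429.8, 444 and 468 in WT+ZnO NPs, 361, 346 and 330.2 in KO and 592, 878 and 559 in KO+ZnO NPs. Here too the KO+ZnO NPs libraries were the 3 highest and the KO libraries the 3 lowest, a log2 fold change of 0.97 (SE 0.18, adjusted p = 0.00996). *Rpl39*, which lines the peptide tunnel, rose by 0.96 (adjusted p = 0.0163) on the log2 scale and *Rpl34* by 0.92 (adjusted p = 0.0175). Without KO+ZnO NPs replicate 2 these fold changes were 0.74 (adjusted p = 0.0261) for *Rpl35*, 0.76 (adjusted p = 0.0235) for *Rpl35a*, 0.68 (adjusted p = 0.0249) for *Rpl39* and 0.66 (adjusted p = 0.0273) for *Rpl34*.

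Among the small-subunit members, *Rps19*, the gene most often mutated in Diamond-Blackfan anaemia, rose by 0.90 (adjusted p = 0.0141), from 706 ± 86.6 CPM (SD, n = 3) to 1322 ± 279.8 CPM (SD, n = 3). *Rps27l* rose by 0.89 (adjusted p = 0.0139), from its low level in KO to 139.6, 214 and 163 CPM, beside 158, 181 and 133 in WT. Leaving out KO+ZnO NPs replicate 2, the difference was 0.74 (adjusted p = 0.0287) for *Rps19* and 0.72 (adjusted p = 0.0327) for *Rps27l*. *Rps24*, another gene of that anaemia, rose by 0.84 (adjusted p = 0.0313), and *Rps14*, which is lost in a deletion syndrome of the bone marrow, by 0.72 (adjusted p = 0.0442). *Rps18* rose by 0.79 (adjusted p = 0.028). Of the 5 members with the highest level per length, *Rpl41* also rose, by 0.76 (adjusted p = 0.0449), and *Rplp1* lay at 0.56 (adjusted p = 0.0752). Without KO+ZnO NPs replicate 2 *Rps24* had 0.55 (adjusted p = 0.0494), while *Rps14* with 0.49 (adjusted p = 0.0813), *Rps18* with 0.58 (adjusted p = 0.0503) and *Rpl41* with 0.48 (adjusted p = 0.0737) were no longer called. Of 22 alternatives the call of *Rpl41* was lost in 14, that of *Rps14* in 13 and those of *Rps18* and *Rps24* in 4 each.

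**Figure D3:**
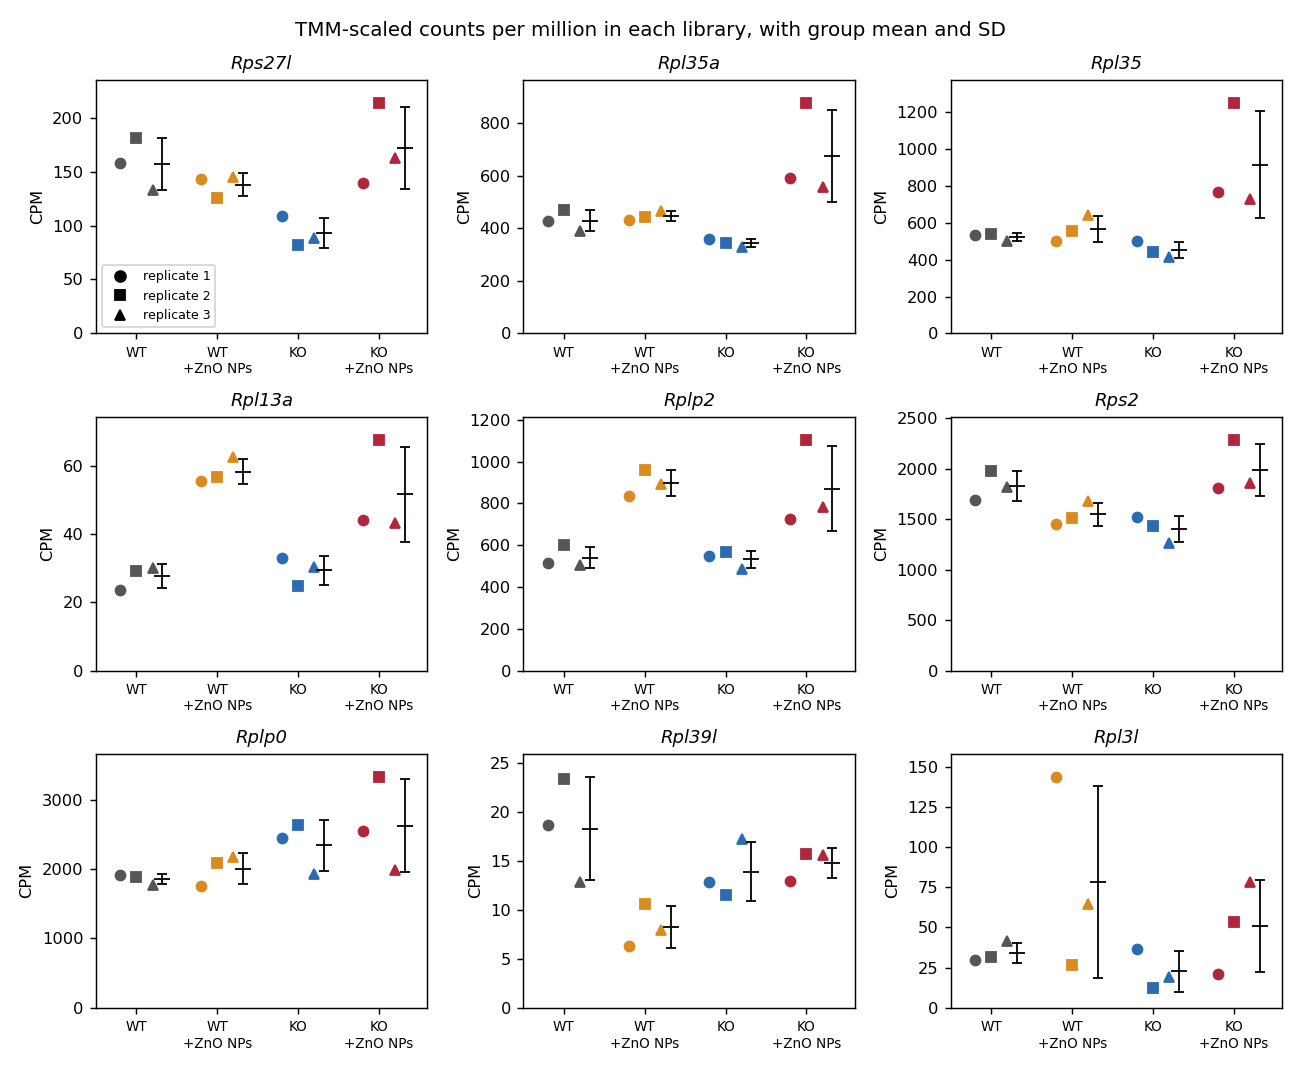
Levels of 9 members in CPM, for the 3 libraries of each group (points) with the group mean and SD beside them, on linear axes from 0. *Rps27l* and *Rpl35a* are lowest in KO, *Rpl35* is highest in KO+ZnO NPs, *Rpl39l* is lowest in WT+ZnO NPs, and *Rpl13a* and *Rplp2* are higher with ZnO NPs in both genotypes.

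By role, the stalk proteins are given first, with the differences between them not tested. *Rplp2* rose between the KO groups by 0.71 (adjusted p = 0.0278), or 0.52 (adjusted p = 0.0507) without KO+ZnO NPs replicate 2, and *Rplp1* had 0.56 (adjusted p = 0.0752), while *Rplp0*, the protein that anchors them, had 0.16 (adjusted p = 0.643). *Rplp0* stood at 1911, 1885 and 1770.1 CPM in WT, 1757, 2088 and 2171 in WT+ZnO NPs, 2453, 2640.1 and 1928 in KO and 2550.3, 3326 and 1989.7 in KO+ZnO NPs, so its KO and KO+ZnO NPs libraries overlapped, and without KO+ZnO NPs replicate 2 its fold change between the KO groups was -0.02 and that of *Rplp1* 0.36 (adjusted p = 0.13). *Rpl5* and *Rpl11*, which with the 5S RNA form the particle that binds MDM2, had 0.53 (adjusted p = 0.0907) and 0.61 (adjusted p = 0.0513) and did not pass. *Rps6*, the substrate of S6 kinase, had 0.52 (adjusted p = 0.102), and *Rpsa*, also described as a laminin receptor, 0.57 (adjusted p = 0.0784). *Rps27a*, made as a fusion with ubiquitin, had 0.36 (adjusted p = 0.352), which became 0.011 without KO+ZnO NPs replicate 1 and 0.63 without KO+ZnO NPs replicate 3. Leaving out KO+ZnO NPs replicate 2, the values were 0.30 (adjusted p = 0.189) for *Rpl5*, 0.43 (adjusted p = 0.105) for *Rpl11*, 0.33 (adjusted p = 0.236) for *Rps6* and 0.39 (adjusted p = 0.155) for *Rpsa*.

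Members with described roles in particular tissues were among those that rose. *Rpl38*, which mice need for the translation of Hox mRNAs and a normal skeleton (chromosome 11 from 114668524 to 114672331 on the plus strand, GRCm38), stood at 268, 274 and 246 CPM in WT, 363, 382 and 370.3 in WT+ZnO NPs, 248, 231 and 235 in KO and 336, 499 and 378 in KO+ZnO NPs. All 6 libraries given ZnO NPs lay above all 6 vehicle libraries, with 0.50 (adjusted p = 0.0185) between the WT groups and 0.77 (adjusted p = 0.0116) between the KO groups. *Rpl22*, needed in T cell development, had 0.84 (adjusted p = 0.0221) between the KO groups and 0.10 (adjusted p = 0.714) between the WT groups. *Rpl13a* rose between the KO groups as well, by 0.82 (adjusted p = 0.0203).

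Paralogs that replace a standard protein in some tissues are given beside their partners. *Rpl3l*, the striated muscle paralog of *Rpl3*, stood at 30.0, 31.6 and 41.5 CPM in WT, 144, 26.8 and 64.7 in WT+ZnO NPs, 36.8, 12.1 and 19.3 in KO and 21.3, 53.1 and 78.1 in KO+ZnO NPs. Its groups overlapped in each comparison with the largest standard error of the family, at a log2 fold change of 1.16 (SE 0.61, adjusted p = 0.216) between the KO groups, and *Rpl3* had 0.36 (adjusted p = 0.205). The 4 libraries with the most *Rpl3l* (WT+ZnO NPs replicates 1 and 3, KO+ZnO NPs replicates 2 and 3) were also the 4 with the highest summed level of the 8 skeletal muscle markers, at 9301 to 21483 CPM against 1118 to 6317 in the others. The part of muscle in the result was not tested. *Rpl36a* rose by 0.87 (adjusted p = 0.0191) and *Rpl36al* had 0.00 (adjusted p = 0.997), at a level near the bottom of the family. *Rpl39l*, at 0.09 (adjusted p = 0.845) between the KO groups, had its libraries there overlapping, unlike those of *Rpl39*. The X chromosome holds 4 members, of which *Rpl36a* and *Rpl39* rose, while *Rpl10* had 0.31 (adjusted p = 0.234) and *Rps4x* 0.30 (adjusted p = 0.281). Leaving out KO+ZnO NPs replicate 2, *Rpl10* had 0.16 (adjusted p = 0.489), *Rps4x* 0.10 (adjusted p = 0.664) and *Rpl3* 0.19 (adjusted p = 0.456).

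The responses of the genotypes to ZnO NPs were set side by side. Of the 10 members that rose on WT skin, 7 also rose on KO skin (70% of the 10 and 18.4% of the 38), namely *Rpl13a*, *Rpl27*, *Rpl28*, *Rpl38*, *Rpl7a*, *Rplp2* and *Rps28*. Of these 7, only *Rpl13a*, *Rpl38* and *Rpl7a* were called between the KO groups without KO+ZnO NPs replicate 2, where *Rps28* had 0.35 (adjusted p = 0.0845). Over the 80 members, which share libraries' depth and differ in level, the fold changes had a Spearman's rho of 0.09. For instance *Rpl35* had 0.11 and 1.01, and *Rpl38* had 0.50 and 0.77.

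**Figure D4:**
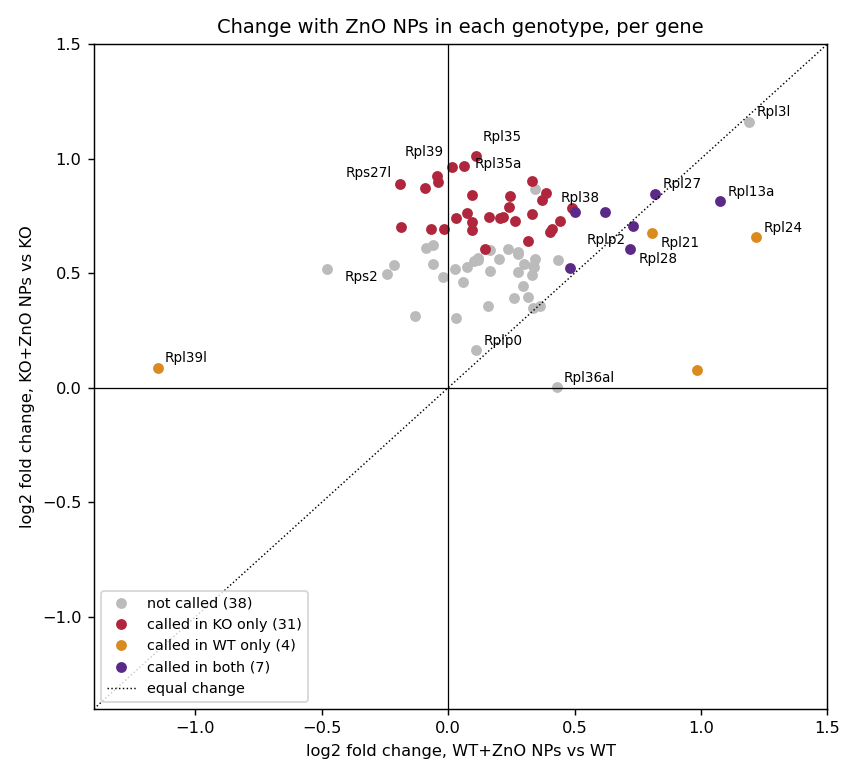
Log2 fold change of each tested member with ZnO NPs between the WT groups (x axis) and between the KO groups (y axis). All points lie above 0 on the y axis, the medians are 0.23 on x and 0.62 on y, and points are coloured by where they were called, with a dotted line of equal change. *Rpl35* lies at 0.11 and 1.01.

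The difference between these responses was tested by the interaction of genotype and ZnO NPs. Its median over the members was 0.44, against 0.02 for all genes, with 71 members above 0. Other protein-coding genes at 300 to 1000 CPM had a median of 0.39 and those over 1000 CPM one of 0.37, and other genes of at most 750 bases had 0.37, beside 0.45 for the members of that length. Without KO+ZnO NPs replicate 2, other genes of at most 750 bases had 0.23 and the members of that length 0.23. Of the members, 2 passed with a larger rise on KO skin (2.5%, background 5.08%) and 1 with a smaller one (1.25%, background 3.59%). The larger rises were those of *Rps27l*, at a log2 difference of 1.08 (SE 0.25, adjusted p = 0.0296), and *Rpl35a*, at a log2 difference of 0.91 (SE 0.25, adjusted p = 0.0474). At an unadjusted p below 0.05, 18 members had a larger (background 14.5%) and 1 a smaller rise on KO skin (background 12.9%), and DESeq2 called 13 (background 9.43% of 18198 genes) and 1 (background 7.89%). None of these 3 calls was kept under all alternatives, and without KO+ZnO NPs replicate 2 the median of the interaction was 0.16 and the log2 differences were 0.87 (adjusted p = 0.0417) for *Rps27l* and 0.65 (adjusted p = 0.0417) for *Rpl35a*. The WT groups also differed in Y-linked transcripts, and with these as a covariate 0 members were called. In that fit 5 members had a larger rise on KO skin at an unadjusted p below 0.05 (6.25%, against 9.13% of all genes).

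*Rps2*, a protein of the small subunit at the mRNA entry, had opposite differences in the genotypes, none of which passed by edgeR. It stood at 1686, 1976 and 1822 CPM in WT, 1454, 1515 and 1676 in WT+ZnO NPs, 1519.7, 1432 and 1263 in KO and 1812, 2283 and 1859 in KO+ZnO NPs. The WT+ZnO NPs libraries lay below all WT libraries, with -0.24 (adjusted p = 0.274), and the KO+ZnO NPs libraries lay above all KO libraries, with 0.50 (adjusted p = 0.0705). The difference of the responses was 0.74 (adjusted p = 0.0786). DESeq2 called this difference (adjusted p = 0.00284) and the rise between the KO groups (adjusted p = 0.00495). Of its stretches, 79.03% occur in other genes.

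Between the groups given ZnO NPs, no member passed in either direction (0 of 80 by edgeR, background 2.13% higher and 1.16% lower). At an unadjusted p below 0.05, 35 members were higher in KO+ZnO NPs (43.75%, background 15.0%) and 1 was lower, and DESeq2 called 20 higher (25%, background 7.1%). The median of the members was 0.39, against 0.04 for all genes, with 72 members above 0, while other protein-coding genes had 0.32 at 300 to 1000 CPM and 0.46 over 1000 CPM. Levels lay wholly above for 44 members (55%, background 13.0%). The size of this excess rested in large part on 1 library: without KO+ZnO NPs replicate 2 the median was 0.17, 16 members were higher at an unadjusted p below 0.05 (20%, against 12.4% of all genes in that fit), and the shares of counts overlapped at a ratio of 1.05. All 3 libraries of WT+ZnO NPs held Y-linked transcripts, and of KO+ZnO NPs only replicate 1. With these transcripts as a covariate 0 members were called. At an unadjusted p below 0.05, 14 were then higher (17.5%, against 10.5% of all genes). The spread within KO+ZnO NPs was also the widest, with a median coefficient of variation of 25.1% over the 80 members, against 7.65% in WT, 8.39% in WT+ZnO NPs and 9.59% in KO.

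Other genes of the cytosolic ribosome, which the rule leaves out by name, include *Rps3a1*, *Fau* and *Rack1*, none of which was called between the KO groups or the WT groups. Between the KO groups *Fau*, made as a fusion with a ubiquitin-like protein, had 0.52 (adjusted p = 0.0784) and *Rack1*, a scaffold on the small subunit, 0.41 (adjusted p = 0.153), and between the WT groups they had 0.16 (adjusted p = 0.489) and 0.09 (adjusted p = 0.709). *Rpl22l1*, a paralog of *Rpl22*, rose between the KO groups by 0.96 (adjusted p = 0.0175), and *Rpl7l1* had -0.05 (adjusted p = 0.78). The processed pseudogenes, whose reads cannot be fully told from those of their parent genes, were counted apart. They were taken by symbol, a name of the members' form followed by -ps, and any pseudogene named otherwise was not included. Of 290, 105 were tested, and 26 (24.8%, background 6.57%) rose and 0 fell between the KO groups (median 0.72), while 25 (23.8%, background 20.8%) rose and 1 fell between the WT groups (median 0.43). When KO+ZnO NPs replicate 2 was left out, 8 of 108 rose between the KO groups (7.41%, against 3.42% of all genes), with a median of 0.42. *Rps3a1*, a small-subunit protein, stood at 295 CPM in KO replicate 1 and 2573 in KO+ZnO NPs replicate 2, against 772 to 1336 in the other libraries. Counts of the 290 pseudogenes stayed at 3.73 to 4.09 per 100 counts of members in all libraries.

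Other families of housekeeping genes were read the same way. The 77 tested genes of mitochondrial ribosomal proteins, which form the ribosome of the mitochondria, had 50 rises and 0 falls between the KO groups, with a median log2 fold change of 0.51. Between KO and WT 0 of 77 rose (background 4.61%) and 11 fell (14.3%, background 3.58%), with a median log2 fold change of -0.35, beside 0 and 1 of the 80 cytosolic members. The nuclear subunits of oxidative phosphorylation rose in 65 of 81 cases between the KO groups (median 0.71, 0 fell), and between KO and WT 6 fell (7.41%, median -0.37). Between the WT groups 14 mitochondrial ribosomal protein genes rose (18.2%, background 20.8%) and 4 fell, and 20 of the phosphorylation subunits rose (24.7%) and 1 fell, with medians of 0.17 and 0.25. Between the KO groups without KO+ZnO NPs replicate 2, 37 and 48 of them rose (48.1% and 59.3%, against 3.42% of all genes), with medians of 0.51 and 0.64.

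Genes that work with the ribosome were counted by list. Of 20 translation factors with known TOP mRNAs, 6 rose and 0 fell between the KO groups (median 0.48, and 1 rise and 0.31 without KO+ZnO NPs replicate 2), and 5 rose between the WT groups (median 0.19). Among them *Npm1*, a nucleolar chaperone, had 0.85 (adjusted p = 0.0249) between the KO groups and 0.56 (adjusted p = 0.0468) between the WT groups. Of 40 ribosome biogenesis genes, 21 rose and 1 fell between the WT groups (median 0.46), and 4 rose between the KO groups (median 0.28), or 1 without KO+ZnO NPs replicate 2. The interaction called 0 of them higher and 1 lower. *Nop56*, part of the enzyme that methylates ribosomal RNA, rose on WT skin by 1.42 (adjusted p = 0.000243) and had a log2 difference between the genotypes of -1.05 (adjusted p = 0.0345). *Fbl*, the methylase of that particle, rose on both, by 0.74 (adjusted p = 0.0119) and 0.69 (adjusted p = 0.0416). Leaving out KO+ZnO NPs replicate 2, neither the difference of *Nop56*, at -1.01 (adjusted p = 0.0579), nor the changes of *Npm1* and *Fbl* between the KO groups, at 0.61 (adjusted p = 0.0519) and 0.57 (adjusted p = 0.111), passed.

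RNA polymerase I and III subunits and factors, which make the ribosomal and transfer RNAs, gave 10 rises of 25 between the WT groups (median 0.31) and 1 between the KO groups (median 0.10), and 4 of them had a smaller rise on KO skin by the interaction. *Polr1b*, a large subunit of polymerase I, rose on WT skin by 1.00 (adjusted p = 0.000625). Genes of the mTORC1 pathway went both ways, with 8 rises and 8 falls of 39 between the WT groups and 3 and 2 between the KO groups, or 2 and 0 there without KO+ZnO NPs replicate 2. In the list of ribosome quality control and p53, 6 of 16 rose and 2 fell between the WT groups, *Trp53* by 0.93 (adjusted p = 0.00148), and 1 rose between the KO groups. All these shares are to be read against the 20.8% and 22.1% of all genes that rose and fell between the WT groups, and the 6.57% and 8.09% between the KO groups. Without KO+ZnO NPs replicate 2 the latter were 3.42% and 4.19%, and for the interaction over all libraries they were 5.08% and 3.59%.

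Transcript length moved with the rise on KO skin. Among protein-coding genes outside the family, the median log2 fold change between the KO groups was 0.28 for the 642 genes of at most 750 bases, 135 of which rose, 0.21 from 751 to 1000 bases, 0.18 from 1001 to 1500, 0.03 from 1501 to 3000 and -0.10 above 3000. In the same length classes the members had 0.70 (39 genes), 0.61 (23), 0.59 (12), 0.51 (4) and 0.79 (2). Without KO+ZnO NPs replicate 2 the other genes had 0.25, 0.24, 0.16, 0.05 and -0.08 and the members 0.48, 0.41, 0.42, 0.30 and 0.54. Members lay above other genes of their length in every class with and without it, and other short genes lay above long ones. Between the WT groups the other genes had 0.07, -0.04, 0.05, 0.04 and -0.01, with no such order, and the members 0.20, 0.15, 0.33, 0.22 and 0.18. The median length of the transcripts counted was 2320 bases in KO+ZnO NPs replicate 2 and 2502 to 2702 in the other libraries. The part of length in the result was not tested. Between the KO groups, other protein-coding genes as abundant as the members had medians of 0.03 at 300 to 1000 CPM and 0.11 over 1000 CPM.

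**Figure D5:**
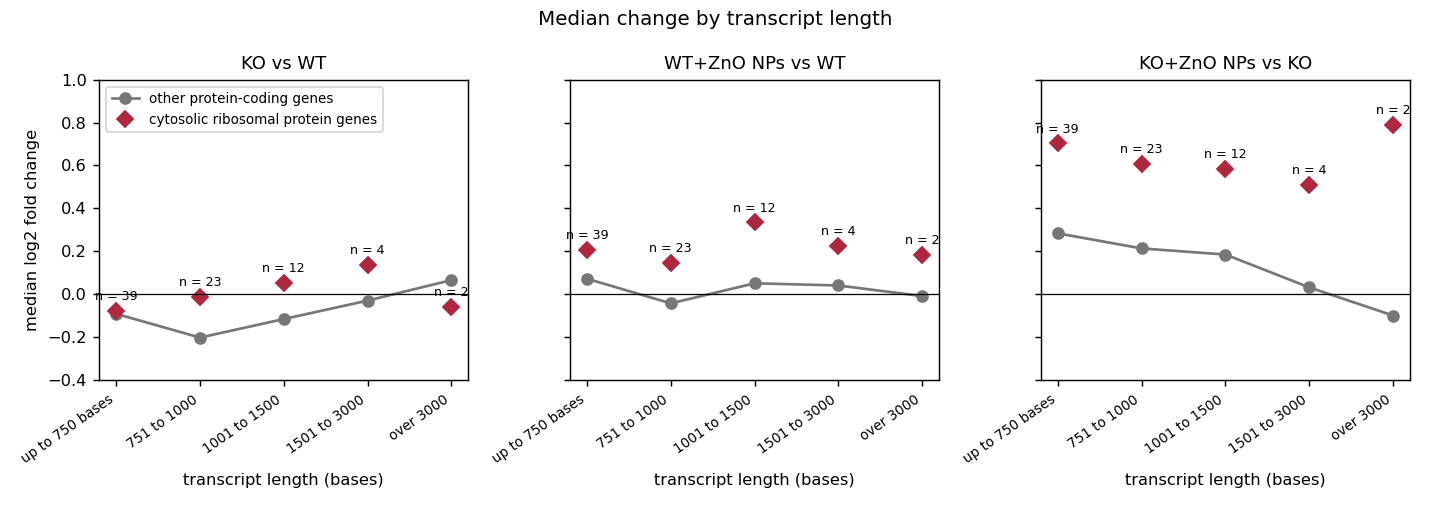
Median log2 fold change by class of transcript length for the members (diamonds, with their number) and for all other protein-coding genes tested (line), for KO against WT and for ZnO NPs on WT and on KO skin. On KO skin the other genes go from 0.28 in the shortest class to -0.10 in the longest, with the members higher in each class.

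Cell type markers also differed between the groups. All 5 proliferation markers rose between the WT groups (median 1.47) and 4 of 5 between the KO groups (median 1.31, and 0 of 5 with a median of 1.23 without KO+ZnO NPs replicate 2), with a summed level of 185 to 360 CPM in WT, 503 to 1042 in WT+ZnO NPs, 180 to 354 in KO and 529 to 637 in KO+ZnO NPs. All 6 macrophage markers fell with ZnO NPs in both genotypes, with medians of -3.96 and -2.21. The anagen hair follicle markers, of which 7 of 8 were tested, stood at a sum of 2.0 to 5.6 CPM in WT and 994 to 4639 in WT+ZnO NPs, and ranged from 11.7 to 7472 in KO and from 197 to 5762 in KO+ZnO NPs. The 5 melanocyte markers all rose between the WT groups (median 5.55) and 0 of 5 were called between the KO groups (median 1.85, with all 5 higher at an unadjusted p below 0.05). Of the 7 skeletal muscle markers tested, 2 rose between the KO groups (median 2.17, with all 7 higher at an unadjusted p below 0.05), and of 5 sebocyte markers 2 rose (median 1.86). Without KO+ZnO NPs replicate 2 these counts were 0 for muscle and 2 for sebocytes. Basal keratinocyte markers rose for 3 of 6 between the WT groups and 0 between the KO groups. The part of cell composition in the changes of the ribosomal protein genes was not tested.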

How the data were processed

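RNA of full-thickness skin of 12 mice, 3 per group, was sequenced with poly-T selection. The authors deposited raw counts, 1 whole number per gene and library without normalization, with 0 columns of other samples. The paper names STAR and HTSeq and a NEBNext kit, while the labels name a TruSeq kit and the submitters' processing notes list HISAT2 2.0.5 and mm10. The annotation and the use of strand are not given in the sources used here, so antisense reads cannot be told apart. Of 52636 genes, 52489 were matched to GENCODE M21. Replicates are separate mice by the paper and differed by more than sampling noise (chi-square per degree of freedom 40.8 to 178).

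Tests were made in R 4.3.3 with edgeR 4.0.16 (quasi-likelihood test) on all 12 libraries (1 coefficient per group, TMM factors, filterByExpr, common dispersion 0.109), with Benjamini-Hochberg adjustment over 18822 genes. A gene was called, and is said to have risen or fallen, at an adjusted p below 0.05. SE were derived from F statistics and are approximate. Library totals of 21076320 to 28867802 counts limit the precision of the low members. The members, lists and rules were chosen with earlier results of these data known. Members named were the 5 highest per length, up to 4 largest rises and falls called in each comparison, those called against the family's direction, those with a known role of their own and paralog pairs (*Rps4l* is annotated as a pseudogene and is no member), and all called between the WT groups. Further members were named after their values were seen, and some genes that these rules name are not reported here. The cell type and pathway lists were counted, not tested. Alternatives were RLE factors, library size only, TMM without ribosomal protein genes, no filter or a minimum of 10 counts per library, a replicate block, Y-linked transcripts as a covariate, members plus their pseudogenes, DESeq2 1.42.0, edgeR on the groups compared, and leaving out each library. The steps were tested on simulated counts. Sequences are from RefSeq on GRCm38.p6. The authors' own FPKM values were not used here.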

Additional observations from a re-analysis of the deposited data

Results flagged for a closer look

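For a pair of members the interaction term was called in the main fit, with a larger rise between the groups labelled KO. *Rps27l* had a log2 difference of 1.08 (edgeR adjusted p = 0.0296), with -0.19 between the WT groups and 0.89 between the KO groups. *Rpl35a* had a log2 difference of 0.91 (edgeR adjusted p = 0.0474), with 0.06 and 0.97. All 3 libraries of WT+ZnO NPs and none of WT held Y-linked transcripts, and with these as a covariate 0 members were called. Of 21 alternatives, the call of *Rps27l* was lost in 7 and that of *Rpl35a* in 14.

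For *Rps2* the 3 libraries of WT+ZnO NPs all lay below WT and the 3 of KO+ZnO NPs all above KO. The log2 difference of the responses was 0.74, which did not pass (edgeR adjusted p = 0.0786), while DESeq2 called it (adjusted p = 0.00284), as it did the rise between the KO groups (adjusted p = 0.00495). No other alternative called either. No formal test of outlying samples was run, since each group held 3.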

How the results depend on the processing

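The medians of the members kept their sign in the comparisons with ZnO NPs under all alternatives, and the shares of counts moved by less than the spread between replicates with another denominator or with 4 more genes. Counts of members called, in either direction, depended more on the settings. Between KO and WT 1 was called, 0 with Y-linked transcripts as a covariate, 2 by edgeR on the groups compared, 3 by DESeq2 and 0 to 2 when leaving out 1 library. The share of all genes called in these fits was, in the same order, 8.18, 5.11, 15.9, 14.2 and 1.94 to 10.6%. Between the WT groups 11 were called, 26 with library size only, 3 with the covariate, 19 on the groups compared and 8 to 25 without 1 library (25 without KO+ZnO NPs replicate 2). For all genes the shares called were 43.0, 44.3, 20.7, 49.0 and 30.7 to 46.7%, in the same order. Between the KO groups 38 were called, 20 without a filter on low counts, 0 by edgeR on the groups compared (50 at an unadjusted p below 0.05), 61 by DESeq2 and 2 to 46 without 1 library. Of all genes, 14.7, 6.18, 3.24, 22.1 and 2.34 to 16.4% were called there, in the same order. Between the ZnO NP groups 0 were called by edgeR (36 at an unadjusted p below 0.05), 0 with the covariate (14 at an unadjusted p below 0.05, 17.5% against 17.1% of all genes), 1 with at least 10 counts in every library, 20 by DESeq2 and 0 to 13 without 1 library (13 without KO+ZnO NPs replicate 3). All genes gave 3.28, 0.0053, 5.44, 11.8 and 0.0052 to 8.26% called, in the same order. For the interaction 3 were called, 1 without a filter, 0 with the covariate (6 at an unadjusted p below 0.05, 7.5% against 17.3% of all genes), 14 by DESeq2 and 0 to 5 without 1 library (5 without KO+ZnO NPs replicate 3). Here 8.68, 3.27, 0.66, 17.3 and 2.38 to 8.45% of all genes were called, in the same order. Leaving out 1 library, the medians ranged from -0.09 to 0.04 for KO against WT, 0.16 to 0.29 for the WT groups, 0.43 to 0.73 for the KO groups, 0.17 to 0.50 between the ZnO NP groups and 0.16 to 0.51 for the interaction, the lowest values of both being those without KO+ZnO NPs replicate 2.

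The same-numbered replicates correlated between -0.34 and 0.43, with 4 of 18 pairs over 0.1, so the numbers do not pair the samples. With the replicate number as a block, 0 members were called between KO and WT, 11 between the WT groups, 34 between the KO groups, 0 between the ZnO NP groups and 1 for the interaction. That fit called 6.58, 42.9, 13.8, 3.33 and 7.59% of all genes, in the same order. *Rps27l* in KO against WT was lost with this block (adjusted p = 0.0517). When leaving out 1 library, fold changes between the KO groups that were not called reversed their sign for *Rplp0* and *Rpl39l*. *Rplp0* ranged from -0.024 to 0.35 (lowest without KO+ZnO NPs replicate 2) and *Rpl39l* from -0.020 to 0.27 (lowest without KO replicate 2). Of the interaction calls, *Rps27l* was lost in 7 of 21 alternatives and *Rpl35a* in 14. Library size only moved the median of all genes to 0.16 between the WT groups, -0.11 between the ZnO NP groups and -0.13 for the interaction, and the members lay 0.17, 0.33 and 0.40 above it. The causes of these changes were not tested. The values of subunits, lists and classes without KO+ZnO NPs replicate 2 were added after seeing the data. Depth limits mainly *Rpl36al* and *Rpl24*, at 1.22 and 2.19 CPM, and shared sequence limits most members.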

Other observations

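Between the WT groups, the melanocyte, anagen and macrophage markers moved far more than any ribosomal protein gene: 5 of 5 melanocyte markers rose (median 5.55), 7 of 7 tested anagen markers rose (median 9.79) and 6 of 6 macrophage markers fell (median -3.96), while the members stayed within -1.15 and 1.22. Suprabasal keratinocyte markers fell for 5 of 7 (median -2.17), adipocyte markers for 5 of 6 (median -2.62) and endothelial markers for 4 of 4 (median -1.61). Between the KO groups, 0 of 7 suprabasal, 0 of 6 adipocyte and 0 of 4 endothelial markers were called. T cell markers fell there for 5 of 6 (median -1.70) and B and plasma cell markers for 4 of 4 tested (median -3.18), and without KO+ZnO NPs replicate 2 for 0 of 6 and 1 of 5. KO replicate 2, with an anagen marker sum of 11.7 CPM against 2273 and 7472 in the other KO libraries, had a share of 5.46% on the ribosomal protein genes, between the 5.65% and 4.97% of those libraries.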
